A study of Mus musculus with 610 samples.

Results

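Bcl11b and Gata3 were read in single mouse thymus cells by quantitative PCR on microfluidic chips, as 2 of the 48 assays of the panel. Both genes were chosen by name as factors of T cell commitment, and their values were taken from all 610 cells. The cells came from 8 capture runs, the run being part of each cell's name. The B6 DN1d group was of C57BL/6J mice, 7 to 10 days after birth (223 cells, 3 runs), sorted as live cells with CD44 and CD24 and without TCRd, lineage markers, CD25 or cKit. Tcrd-/- DN1d cells came through the same gate at the same age from B6.129P2-Tcrd tm1Mom mice, which carry a targeted mutation of the T cell receptor delta locus (86 cells, 1 run). Rag1-/- cKit- cells came from B6.129S7-Rag1 tm1Mom mice, which cannot rearrange antigen receptor genes, at 0 to 2 days after birth (223 cells, 3 runs). They had CD44 and lacked CD25 and cKit, and their gate did not use CD24, so genotype, age and gate differed together from B6 DN1d. B6 DN2 cells were C57BL/6J cells of 7 to 10 days with CD44, CD25 and cKit (78 cells, 1 run). The labels name no animals behind a run. Since each run held 1 group, effects of run and of group cannot be told apart, and a p-value here reflects only how far runs of a group lie from each other, which can be technical.

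Bcl11b is a zinc finger transcription factor that closes the choice of other blood cell fates when thymus progenitors commit to the T lineage, at the step from DN2 towards DN3. Gata3, a zinc finger factor that binds GATA sequences, acts earlier, is needed for the first T cell progenitors to form and later directs CD4 T cells. Both are also used outside conventional T cells: Gata3 in innate lymphoid cells, and Bcl11b in type 2 innate lymphoid cells and in gamma delta T cells.

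Bcl11b lies on chromosome 12 (chr12:107910403-108004145) and Gata3 on chromosome 2 (chr2:9857078-9887953), both in RefSeq's annotation of GRCm38.p6. RefSeq's promoter table gives 250 bases before to 50 after a transcript start of each gene, both on the minus strand and both from a start inside the annotated span of the gene. Short words for the factor families measured in the panel were searched on both strands of these windows: the letters CTTTG followed by A or T for TCF and LEF factors, AGATA or else TGATA followed by A or G for GATA factors, TGTGGT or otherwise TGCGGT for RUNX factors, AGGAAG for ETS factors, and CAGCTG or otherwise CAGGTG for E proteins. No match of one family overlapped a match of another. The 4 matches are shown because Tcf7, Lef1, Ets1, Gata3 and the E protein genes are the assays whose levels are set against the members below. Capitals mark the match, and positions count from the transcript start, with +1 the first transcribed base.
Bcl11b, TCF and LEF word at -89, chr12:108003487-108003514, minus strand: gaggccaagcaCTTTGAagaagtgtgag
Bcl11b, ETS word read on the other strand at +40, chr12:108003365-108003386, minus strand: gagcaagccatCTTCCTggctt
Gata3, E protein word at -1, chr2:9878585-9878612, minus strand: gcgtcgcgccaCAGCTGtctgcgaacac
Gata3, GATA word at +37, chr2:9878551-9878575, minus strand: tggcgccgtctTGATAGtttcagaa
Neither window held a RUNX word. Such words are common: of 32851 promoter windows of the same length, 31.2% held a TCF and LEF word, 35.4% the ETS word, 29.8% a GATA word and 32.9% an E protein word. The matches describe letters in these windows and were not tied to binding, which was not measured.

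Gata3 was present in nearly every cell and Bcl11b was not. Level was computed as 24 minus Ct, the threshold cycle, so that a reaction at the ceiling of 24 has a level of 0 and counts as undetected, and 1 unit is 1 PCR cycle. The scale of 2 assays is not shared, so levels are compared within a gene only. Over all 610 cells, 495 (81.1%) had both transcripts, 111 (18.2%) had Gata3 without Bcl11b, 2 had Bcl11b without Gata3 and 2 had neither. Of the 111 cells with Gata3 alone, 51 came from B6 DN1d run 3.

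Bcl11b, the later factor, was detected in 90.3%, 85.7% and 37.04% of cells in the 3 B6 DN1d runs, in 87.6%, 84.6% and 81.7% in the Rag1-/- runs, in 98.8% in the Tcrd-/- run and in 87.2% in the B6 DN2 run. Its mean level over all cells was 4.93, 4.93 and 1.57 in the B6 DN1d runs, 5.65, 4.65 and 5.06 in the Rag1-/- runs, 9.19 in the Tcrd-/- run and 5.92 in the B6 DN2 run. The Tcrd-/- run stood above every other run, and B6 DN1d run 3 stood below every other run. The remaining 6 runs lay between 4.65 and 5.92, with runs of B6 DN1d, Rag1-/- and B6 DN2 among them.

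Gata3, the earlier factor, was detected in 98.6%, 97.1% and 100% of cells in the B6 DN1d runs, in 100%, 100% and 98.8% in the Rag1-/- runs, and in 100% in the Tcrd-/- and the B6 DN2 run. Its mean level over all cells was 10.20, 9.41 and 10.21 in the B6 DN1d runs, 10.84, 10.04 and 10.18 in the Rag1-/- runs, 12.06 in the Tcrd-/- run and 10.24 in the B6 DN2 run. The Tcrd-/- run was again the highest. The 7 others lay between 9.41 and 10.84, and B6 DN1d run 3, lowest for Bcl11b, was not low for Gata3.

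**Figure D1:**
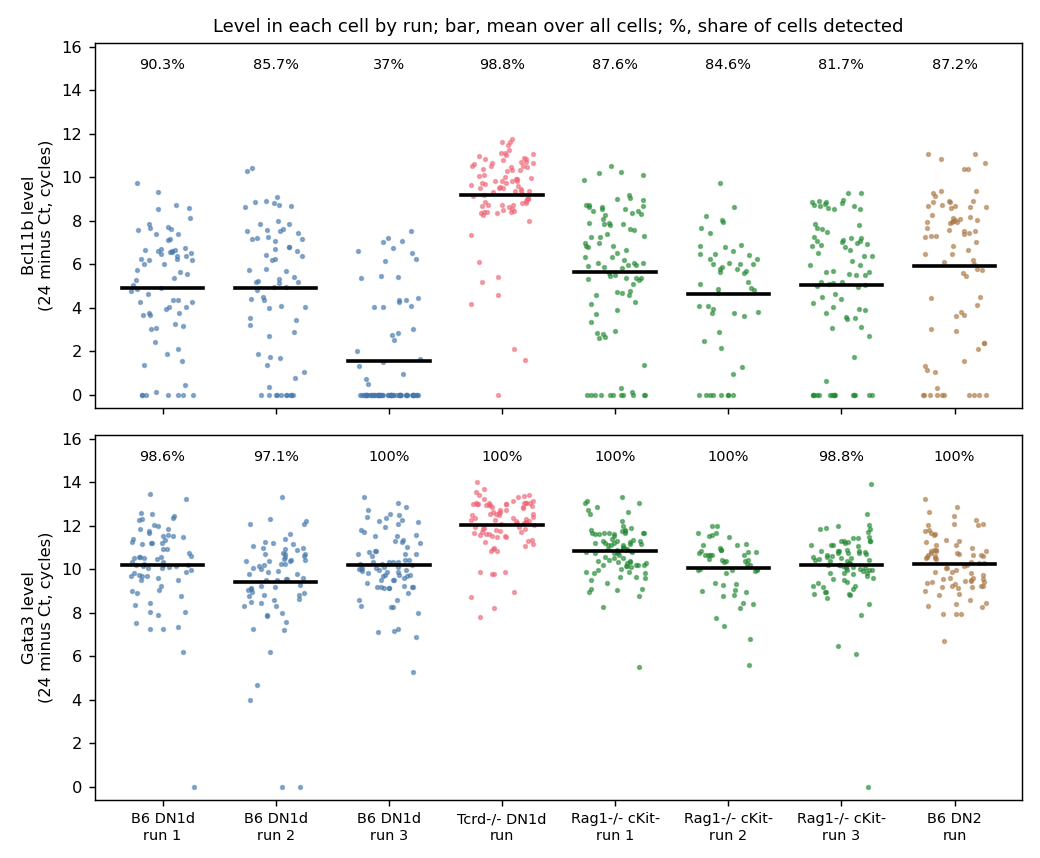
Level of Bcl11b (upper panel) and Gata3 (lower panel) in each cell, in cycles (24 minus Ct), by capture run; points are cells, the bar is the mean over all cells of the run, and the percentage gives the cells in which the gene was detected. Bcl11b spreads from 0 to its top level within most runs, is crowded at 0 in B6 DN1d run 3 and sits high in the Tcrd-/- run, while Gata3 is at 0 in only 4 cells.

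Within runs, the spread of Bcl11b among cells was wider in cycles than that of Gata3, though the 2 assays share no scale. In cells with the transcript, the interquartile range of Bcl11b was 2.65, 3.22 and 3.65 cycles in the B6 DN1d runs, 2.98, 2.41 and 2.66 in the Rag1-/- runs, 3.08 in B6 DN2 and 1.77 in the Tcrd-/- run. The same range for Gata3 ran from 1.30 to 1.90 cycles over the 8 runs. In each of the 8 runs the Bcl11b range exceeded the Gata3 range, and the narrowest Bcl11b distribution was that of the Tcrd-/- run. The median Bcl11b level of cells that had it was also highest there, 9.62 cycles against 4.30 to 7.53 in the other runs. Whether the wider range goes with a level nearer to 0 was not tested. A Bcl11b level of 8 cycles or more was reached by 89.5% of Tcrd-/- cells and by 34.6% of B6 DN2 cells. It was reached by 8.33%, 12.9% and 0% of B6 DN1d cells, and by 24.7%, 7.69% and 17.1% of Rag1-/- cells. In B6 DN2 the median Bcl11b level of cells that had it was 7.53 cycles, above the highest such median of the B6 DN1d runs (6.04) and of the Rag1-/- runs (6.59). The share of cells with Bcl11b in B6 DN2, 87.2%, lay inside the ranges of both of those groups.

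The question of the comparisons is how each group stands to B6 DN1d. The mean level per run was fitted with limma over all 8 runs and 47 assays, with Benjamini-Hochberg adjustment and a threshold of 0.05. The 2 groups of 1 run were assumed to vary as those of 3 do. Against B6 DN1d, Bcl11b was higher in Tcrd-/- DN1d by 5.38 ± 1.48 cycles (SE; adjusted p = 0.0256) and Gata3 by 2.12 ± 0.48 cycles (adjusted p = 0.0157). In that comparison 61.7% of all assays passed the threshold, each of the 29 of them upwards, so a rise there did not set these 2 genes apart from the panel. The Tcrd-/- cells also had more assays detected, 30.9 a cell on average against 19.2 to 20.3 in the B6 DN1d runs. Adjusted for the number of other assays detected, the differences were 2.47 cycles for Bcl11b (adjusted p = 0.430) and 0.66 for Gata3 (adjusted p = 0.539). Neither passed the threshold. The Tcrd-/- run's Gapdh level, 15.1, lay within the 14.2 to 15.6 of the other 7 runs. With the Gapdh level subtracted, Bcl11b remained 4.88 cycles higher (adjusted p = 0.0051) and Gata3 was 1.62 higher without passing (adjusted p = 0.0608).

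The share of cells with Bcl11b, tested with limma on the logit scale, was higher in Tcrd-/- DN1d than in B6 DN1d by 2.91 ± 0.71 (SE; adjusted p = 0.0015), where 55.3% of all assays passed. It was also higher than in B6 DN2, by 2.17 (adjusted p = 0.0312; 68.1% of assays passed), and than in Rag1-/- cKit-, by 2.36 (adjusted p = 0.0074; 57.4% passed). By level, Bcl11b was 3.27 cycles above B6 DN2 (adjusted p = 0.181) and 4.07 above Rag1-/- (adjusted p = 0.0701), and neither passed. Gata3 in Tcrd-/- DN1d was 1.70 cycles above Rag1-/- (adjusted p = 0.0311; 55.3% of assays passed) and 1.82 above B6 DN2 (adjusted p = 0.0511; 51.1% passed). No difference in the share of cells with Gata3 passed in any of the 6 pairs of groups, in a gene seen in nearly every cell (smallest unadjusted p = 0.0970 by limma). Without B6 DN1d run 3, which had Gata3 in all 81 cells, those of the 3 other groups against B6 DN1d were 1.47, 1.57 and 1.02 on the logit scale for B6 DN2, Tcrd-/- and Rag1-/- and passed (adjusted p = 0.0149 for Rag1-/-, the group of 3 runs). On the B6 DN1d side they rested on 1 of 72 and 2 of 70 cells without Gata3. In a run with Gata3 in every cell, the logit was set by the number of cells and the 0.5 added to each side. Without Rag1-/- run 1 or run 3, the adjusted p of the Bcl11b level between Tcrd-/- and B6 DN1d was 0.0509 in both cases. Without Rag1-/- run 1 that of the share was 0.0613. The share above B6 DN2 and above Rag1-/- did not pass without Rag1-/- run 1 (adjusted p = 0.185 and 0.102) or run 2 (0.157 and 0.0992). Gata3 above Rag1-/- did not pass without B6 DN1d run 1 (0.0543) or Rag1-/- run 2 (0.0696) or run 3 (0.0774), and Gata3 above B6 DN2 passed without B6 DN1d run 2 (0.0373) or Rag1-/- run 1 (0.0456). Bcl11b by level passed above B6 DN2 and Rag1-/- once B6 DN1d run 3 was left out (adjusted p = 0.0111 and 0.0039), a run of neither group that widened the shared spread.

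No difference in either gene passed between any other pair of groups. B6 DN2 minus B6 DN1d was 2.11 ± 1.48 cycles for Bcl11b (limma, adjusted p = 0.257) and 0.30 ± 0.48 for Gata3 (adjusted p = 0.613), while 57.4% of all assays passed by level and 66% by share of cells. Rag1-/- cKit- minus B6 DN1d was 1.31 ± 1.04 cycles for Bcl11b (adjusted p = 0.312) and 0.42 ± 0.34 for Gata3 (adjusted p = 0.316), while 55.3% of all assays passed by level and 59.6% by share. B6 DN2 minus Rag1-/- was 0.80 cycles for Bcl11b (adjusted p = 0.719) and -0.12 for Gata3 (adjusted p = 0.895), while 51.1% passed by level and 57.4% by share. The errors of the Bcl11b differences were about as large as the differences themselves, and B6 DN1d run 3 carried much of that spread: over the 3 runs of B6 DN1d the mean level was 3.81 ± 1.94 (SD, n = 3), against 5.12 ± 0.50 (SD, n = 3) over those of Rag1-/-. Without run 3 the difference in share between Rag1-/- and B6 DN1d turned from 0.55 to -0.28 on the logit scale (adjusted p = 0.547). Without run 1 it was 1.07 and passed (adjusted p = 0.0433).

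Other genes of T cell specification were measured in the same comparisons with B6 DN1d. The list held 9 other panel assays, of which Tcf3 E47 and Tcf3 E12 are of the same gene. Of these 9, 6 were higher and 1 lower by level in B6 DN2 than in B6 DN1d, with a median difference of 5.52 cycles. Of all 47 assays 19 were higher and 8 lower (57.4% called), with a median of 1.13. Tcf3 E47, an E protein isoform, was higher by 7.63 cycles, Tcf7, which encodes TCF-1, by 6.71, Runx1, a Runt factor, by 6.34 and Tcf12, which encodes the E protein HEB, by 5.78 (limma, adjusted p = 0.0007, 0.0009, 0.0008 and 0.0031). Lef1, a relative of Tcf7, was the one that fell, from 4.52 to 0.63. In Tcrd-/- DN1d 7 of the 9 rose and none fell, with a median of 4.55, against 29 higher and 0 lower of 47 (61.7%) and a median of 3.06. The largest of these were Tcf12 at 6.18 cycles, Lef1 at 5.43 and Tcf7 at 5.17 (adjusted p = 0.0040, 0.0077 and 0.0041). In Rag1-/- cKit- 4 of the 9 rose and none fell, with a median of 1.09, against 16 higher and 10 lower of 47 (55.3%) and a median of 0.84. These were Tcf7 by 4.61 cycles, Tcf12 by 3.37, Tcf3 E47 by 2.60 and Ets1, an ETS factor, by 1.34 (adjusted p = 0.0020, 0.0073, 0.0102 and 0.0121). Tcf3 E12 did not pass by level in any of these comparisons with B6 DN1d, and by share of cells it was higher in B6 DN2. The list was assembled with earlier results of these data known, and its counts are a description.

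Markers of other cells were measured beside the members. Of 4 myeloid and dendritic markers, Csf1r was at 0 in 7 of the 8 runs, and at least 1 of the 4 was detected in 12.5%, 17.1% and 28.4% of cells of B6 DN1d runs 1 to 3 and in 9.30% of Tcrd-/- cells. In the Rag1-/- runs that share was 0% to 2.44%, and in B6 DN2 it was 80.8%, nearly all of it Spi1, which early thymus progenitors also express. At least 1 of the innate lymphoid markers Id2, Zbtb16, Nfil3 and Il7r was detected in 98.9% to 100% of cells in the Rag1-/- runs and in 70% to 88.9% in the B6 DN1d runs. That share was 89.5% in Tcrd-/- and 98.7% in B6 DN2, so a high share was not particular to Rag1-/-. Of the T lineage markers beside the members, Tcf7 was seen in 58.6% to 62.5% of B6 DN1d cells and in 92.3% to 98.9% of Rag1-/- cells, and Lef1 in 47.1% to 50.6% and in 15.4% to 41.5%, so the 2 markers went opposite ways. In cells with no myeloid marker, Bcl11b was detected in 92.1%, 91.4% and 39.7% of cells in B6 DN1d runs 1 to 3. In cells with such a marker the counts were 7 of 9, 7 of 12 and 7 of 23. The part of these cells in the results was not tested.

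Run 3 of B6 DN1d was low in Bcl11b and not in general. Against the mean of runs 1 and 2, its Bcl11b level fell by 3.37 cycles, the largest fall among 47 assays, while runs 1 and 2 were both at 4.93. Run 3 was lower than that mean in 17 assays and higher in 29, with a median difference of 0.33 cycles. The mean number of assays detected a cell was 19.2, against 20.3 and 19.8, and the Gapdh level was 14.7, against 15.1 and 14.2. Gata3 was 0.40 cycles above the mean of runs 1 and 2, at 10.21 against 10.20 in run 1 and 9.41 in run 2. Of the 5 other assays more than 1 cycle lower, Cd163l1, a scavenger receptor gene of gamma delta T cells, differed by -1.92, Blk, a Src family kinase, by -1.71, Myb by -1.28 and Sox13, an HMG box factor of gamma delta T cells, by -1.05. Of the 9 assays more than 1 cycle higher, Tbx21, which encodes T-bet, stood 4.90 higher and Tcf3 E12 stood 3.80 higher, both further from the other runs than Bcl11b. These differences between runs of 1 group have no test here.

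Where Bcl11b was detected in run 3, its level was also lower: the median in those 30 cells was 4.30 cycles, against 6.04 and 5.98 in runs 1 and 2, and the highest cell reached 7.52 against 9.76 and 10.4. The low share in run 3 was also seen in cells with Sox13. In runs 1 and 2 all 36 and all 31 cells with Sox13 also had Bcl11b (exact 95% lower bounds 90.3% and 88.8%, counting error only). In run 3 it was 8 of 26 (30.8%, exact interval 14.3% to 51.8%). Cells without Sox13 had Bcl11b in 80.6%, 74.4% and 40%. The 8 cells of run 3 that had both transcripts had a median Bcl11b level of 6.68, near the 6.64 and 7.16 of the Sox13 cells of runs 1 and 2. The 26 cells with Sox13 in run 3 had a mean Gata3 level of 11.4, above the 9.65 of the other cells of that run, while their share with Bcl11b was not above that of the others.

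**Figure D2:**
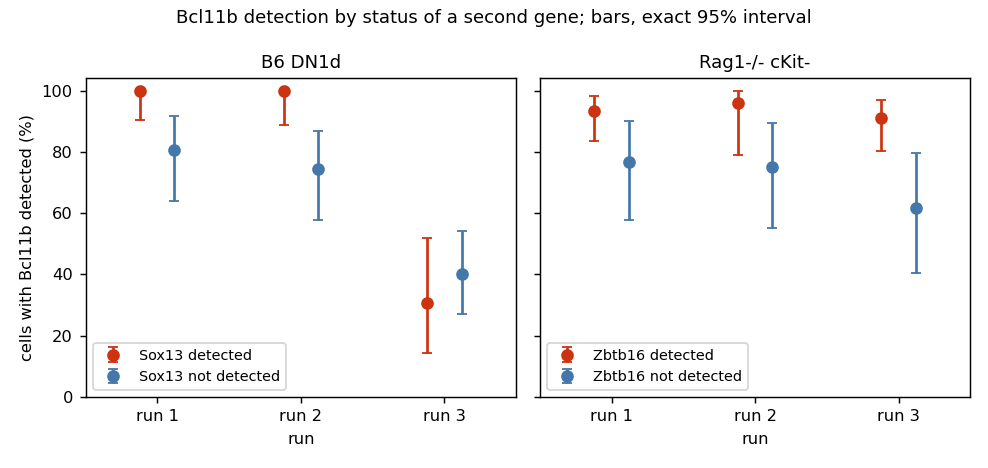
Share of cells with Bcl11b detected (percent) by run, in B6 DN1d split by Sox13 detection and in Rag1-/- cKit- split by Zbtb16 detection; points are shares and bars exact 95% intervals of the cell counts. In B6 DN1d runs 1 and 2 every cell with Sox13 had Bcl11b, against 30.8% in run 3; in the Rag1-/- runs cells with Zbtb16 had it in 91.1% to 95.8%.

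The level of Gata3 followed that of Bcl11b from cell to cell in some groups. Over all cells of a run, Spearman's rho was 0.59, 0.53 and 0.23 in B6 DN1d, 0.63 in Tcrd-/- DN1d, 0.41 in B6 DN2 and 0.15, 0.12 and 0.27 in Rag1-/- cKit- (52 to 89 cells a run). The cells of a run share capture and chemistry, and cells with more assays detected had more of both transcripts, so rho is a description. Among cells with both transcripts, rho was 0.60, 0.52 and 0.63 in B6 DN1d, so that run 3 (30 cells) was like the other two. It was 0.62 in Tcrd-/-, 0.47 in B6 DN2 and 0.21, 0.01 and 0.21 in Rag1-/-. All 3 Rag1-/- runs lay below all 5 runs of the other groups in this measure. With the number of other assays detected held fixed, rho was 0.22, 0.48 and 0.21 in B6 DN1d, 0.60 in Tcrd-/-, 0.34 in B6 DN2 and 0.05, 0.09 and 0.20 in Rag1-/-. With the Gapdh level held fixed, it was 0.54, 0.20 and 0.20 in B6 DN1d, 0.58 in Tcrd-/-, 0.18 in B6 DN2 and 0.11, 0.01 and 0.27 in Rag1-/-. The Tcrd-/- value stayed between 0.58 and 0.63, while the lowest B6 DN1d values came close to the highest Rag1-/- value under the first adjustment and below it under the second. The difference between groups was not tested.

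**Figure D3:**
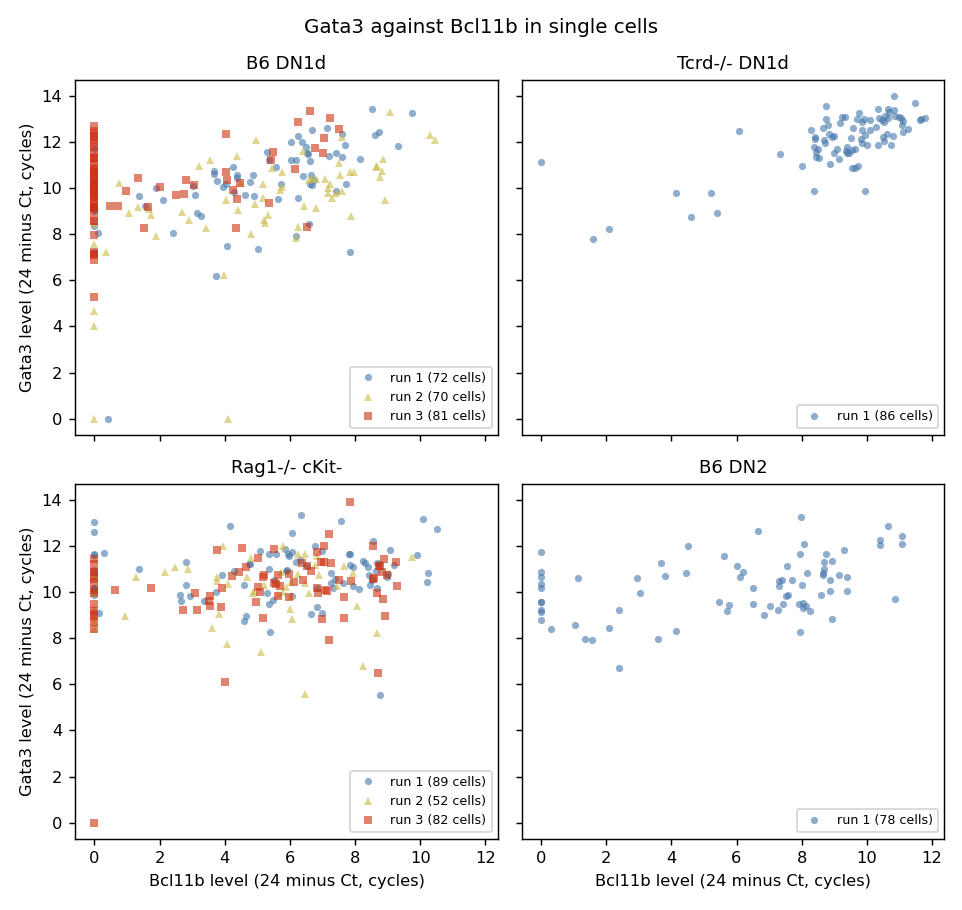
Gata3 level against Bcl11b level, both in cycles (24 minus Ct), 1 point per cell and 1 panel per group, with symbols for the runs. Gata3 rises with Bcl11b in B6 DN1d runs 1 and 2 (rho 0.59 and 0.53), Tcrd-/- DN1d (0.63) and B6 DN2 (0.41), and less in B6 DN1d run 3 (0.23). Most Tcrd-/- cells lie in 1 high cloud. The Rag1-/- cells form a flatter band, with rho of 0.15, 0.12 and 0.27 in the 3 runs, the last above that of B6 DN1d run 3.

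The cells that lacked Bcl11b kept Gata3. Their mean Gata3 level was 9.44, 7.36 and 10.0 in the B6 DN1d runs (7, 10 and 51 cells), against 10.3, 9.75 and 10.5 in the cells with Bcl11b. In the Rag1-/- runs it was 11.1, 9.69 and 9.28 (11, 8 and 15 cells) against 10.8, 10.1 and 10.4, and in B6 DN2 10.0 (10 cells) against 10.3. In 6 of these 7 runs the cells without Bcl11b had the lower Gata3 level, and in Rag1-/- run 1 the higher. The 4 cells without Gata3 had 10 to 22 assays detected where the medians of their runs were 19 to 25. A transcript of Gapdh was present in each at 12.7 to 15.0 cycles, and 2 of the 4 had a myeloid marker.

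The genes ranked highest with Bcl11b from cell to cell differed in part between groups, a difference that was not tested. Partners were ranked by the mean over runs of within-run rho, among assays seen in 5% to 95% of cells of every run and with 1 sign in all of them. In B6 DN1d they were Sox13 (0.71, 0.71 and 0.05 in runs 1 to 3), Blk (0.66, 0.62 and 0.17), Maf, a bZIP factor of gamma delta T cells that make interleukin 17 (0.69, 0.59 and 0.15), and Sox4, an HMG box factor (0.64, 0.69 and 0.10). All 4 were weak in run 3 over all cells. Among the cells of run 3 with Bcl11b they were not: rho was 0.61 for Sox13, 0.54 for Blk, 0.63 for Maf and 0.48 for Sox4. The lowest were Csf2rb2, a receptor chain of myeloid and mast cells (mean rho -0.30), Gp49a, an immunoglobulin-like receptor gene of such cells (-0.28), and Cdh1, which encodes E-cadherin (-0.22). Held at a fixed number of other assays, the mean rho of the 4 partners was 0.20 to 0.27.

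In Rag1-/- cKit- the partners of Bcl11b were Maf (0.61, 0.57 and 0.72 in the 3 runs), Runx1 (0.56, 0.45 and 0.67), Il17re, a receptor chain for interleukin 17C (0.45, 0.46 and 0.67), and Zbtb16, which encodes the innate lymphocyte factor PLZF (0.55, 0.44 and 0.58). With the number of other assays held fixed their mean rho was 0.61, 0.52, 0.51 and 0.49, near the unadjusted 0.63, 0.56, 0.53 and 0.52. The lowest were Gzma, which encodes granzyme A of cytotoxic cells (mean -0.45), Cdh1 (-0.41) and Syk, a tyrosine kinase (-0.40). Maf thus ranked high in both groups of 3 runs. The other named B6 DN1d partners were also positive with Bcl11b in the Rag1-/- runs. Blk had a rho of 0.26, 0.32 and 0.48 there, and Sox4 of 0.07, 0.02 and 0.32. Sox13 had 0.32, 0.30 and 0.35, but could not be ranked, as its lowest share in a Rag1-/- run was 3.85% of cells. Over the 25 assays that could be ranked in both groups, 8 had a positive and 1 a negative rho in all 6 runs, and 4 had opposite signs: Gzma, Syk, Notch1 and Tcf3 E47. The Rag1-/- values of Notch1 and Tcf3 E47 lay between -0.20 and -0.04. Tcf3 E12, an assay of the same gene as E47, had mixed signs within both groups. Its rho was 0.37, 0.34 and -0.03 in B6 DN1d and 0.13, -0.10 and 0.05 in Rag1-/-.

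The single runs gave other orders. In Tcrd-/- DN1d the highest were Tcf7 (0.60), Lef1 (0.58), Ccr9, a receptor for thymus homing (0.52), Gzma (0.51) and Tox, an HMG box factor (0.51). The lowest were Gp49a (-0.46), Cdh1 (-0.45) and Csf2rb2 (-0.42). In B6 DN2 they were Il7r, the interleukin 7 receptor (0.51), Rag2, the partner of Rag1 in receptor gene rearrangement (0.41), Dna2 and E2f2, which act in DNA replication and the cell cycle (0.39 each), and Lef1 (0.33). The lowest in B6 DN2 was Spi1, which encodes PU.1, at -0.20. Cdh1 was negative in all 8 runs. Assays seen in more than 95% of cells were left out of these orders, and some had a rho as high. In Tcrd-/- DN1d they included Ets1 (0.64), Gata3 and Sox13 (0.63 each) and Maf (0.54). In B6 DN2 they included Ets1 (0.72), Tcf12 (0.61) and Runx1 (0.51). The orders thus depend on which assays the limits admit in a run.

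**Figure D4:**
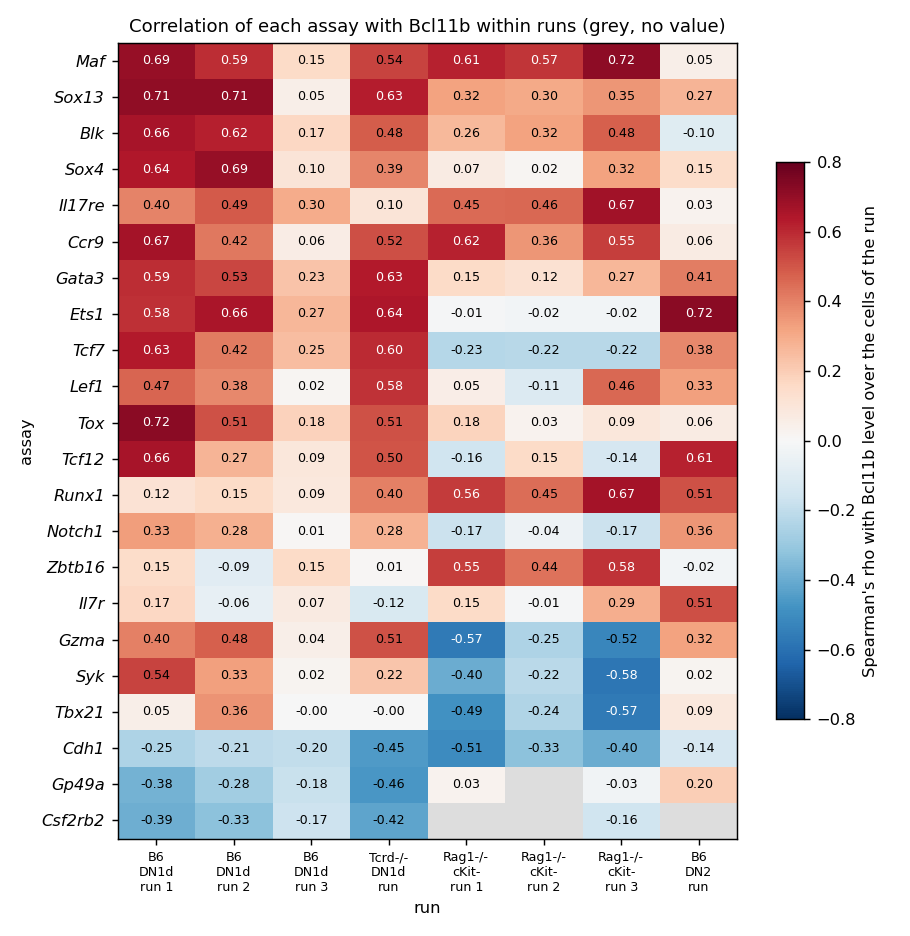
Spearman's rho of each named assay with the Bcl11b level over the cells of a run, 1 column per run and 1 row per assay; red is positive, blue negative and grey has no value. Sox13, Blk and Maf are high in B6 DN1d runs 1 and 2 and weak in run 3, Runx1 and Zbtb16 are high in the 3 Rag1-/- runs, and Gzma and Syk are negative in those runs and positive in B6 DN1d.

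The partners of Gata3 were ranked in the same way. In B6 DN1d its highest were Sox4 (mean rho 0.47), Bcl11b (0.45), Tcf12 (0.44) and Maf (0.43), and in B6 DN2 Il7r (0.57), Dna2 (0.53) and Bcl11b (0.41). In Tcrd-/- DN1d they were Gzma (0.68), Tcf7 (0.64), Smo, which encodes the hedgehog signal transducer (0.64), and Ccr9 (0.60). In Rag1-/- cKit- none of the ranked assays passed a mean of 0.33, reached by Tox, followed by Notch1 (0.27), Tcf12 (0.25), Runx1 and Bcl11b (0.18 each). Ets1, seen in nearly every cell and so outside the ranking, had a rho with Gata3 of 0.69, 0.67 and 0.65 in B6 DN1d, 0.58 in Tcrd-/-, 0.62 in B6 DN2 and 0.48, 0.37 and 0.31 in Rag1-/-. It had a rho with Bcl11b of 0.58, 0.66 and 0.27 in B6 DN1d, 0.64 in Tcrd-/- and 0.72 in B6 DN2, but -0.01, -0.02 and -0.02 in Rag1-/-. Gapdh, also outside the ranking, had a rho with Gata3 of 0.47, 0.65 and 0.27 in B6 DN1d. It was 0.37 in Tcrd-/-, 0.73 in B6 DN2 and 0.47, 0.48 and 0.37 in Rag1-/-. With the number of other assays held fixed, the B6 DN1d means were 0.24 for Sox4, 0.30 for Bcl11b, 0.21 for Tcf12 and 0.19 for Maf. Those of Tox, Notch1 and Tcf12 in Rag1-/- were then 0.27, 0.26 and 0.20.

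Over the T cell specification genes, the median rho with Bcl11b was 0.42, 0.28 and 0.08 in the B6 DN1d runs, 0.40 in Tcrd-/- and 0.40 in B6 DN2, and -0.03, -0.05 and -0.08 in the Rag1-/- runs. Over all assays with a value, the medians were 0.37, 0.33 and 0.06, 0.30, 0.25, and 0.06, -0.01 and -0.01. In the 3 Rag1-/- runs 3, 2 and 3 of 8 list assays had a positive rho with Bcl11b, against 25 of 39, 17 of 37 and 20 of 40 over all assays. With Gata3 it was 7, 6 and 7 of 8, against 31 of 39, 25 of 37 and 26 of 40. The median rho of the list with Gata3 was 0.43, 0.23 and 0.33 in the B6 DN1d runs, 0.38 in Tcrd-/-, 0.56 in B6 DN2 and 0.20, 0.20 and 0.17 in the Rag1-/- runs. Over all assays it was 0.30, 0.17 and 0.26, then 0.26, 0.29, and 0.17, 0.10 and 0.11. Tcf7 had a rho with Bcl11b of 0.63, 0.42 and 0.25 in B6 DN1d and of -0.23, -0.22 and -0.22 in Rag1-/-, where it was detected in 92.3% to 98.9% of cells.

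Which genes were detected together with Bcl11b was tested over runs. For 29 assays seen in 5% to 95% of cells in each of B6 DN1d and Rag1-/- cKit-, a natural log odds ratio compared how often each was found in cells with and without Bcl11b, and it was fitted with limma over 6 runs. In B6 DN1d 4 assays (13.8%) passed, all upwards. They included Blk at 1.96 ± 0.57 (SE), Sox13 at 1.88 ± 0.59 and Il17re at 1.78 ± 0.56 (adjusted p = 0.0273 for each). Blk was present in 31 of 65 cells with Bcl11b and 0 of 7 without in run 1, in 29 of 60 and 0 of 10 in run 2, and in 8 of 30 and 11 of 51 in run 3. A count of 0 of 7 allows a share of up to 42.9%, and 0 of 10 up to 30.0%. For Blk, runs 1 and 2 thus showed the association and run 3 did not. Il17re in run 3 was present in 7 of 30 cells with Bcl11b and 5 of 51 without. The test did not adjust for the number of other assays detected in a cell. The Bcl11b level had a rho with that number of 0.78, 0.64 and 0.10 in B6 DN1d and 0.35, 0.26 and 0.38 in Rag1-/-. With the number held fixed, its rho in B6 DN1d was 0.12, 0.35 and 0.14 with Blk and 0.27, 0.46 and -0.03 with Sox13. With Il17re it was 0.13, 0.25 and 0.30. The co-detection test thus did not tell a link of Bcl11b with these genes apart from general detection. By limma, 0 of the 29 assays passed in B6 DN1d without run 1 (1 at an unadjusted p under 0.05), without run 2 (2) or without Rag1-/- run 3 (8). Tcf7 and Id2 were outside the tested range.

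In Rag1-/- cKit- 7 of the 29 assays (24.1%) passed. Upwards were Ccr9 at 2.19 ± 0.60 (limma, adjusted p = 0.0110), Il17re at 1.88 ± 0.56 (0.0123), Zbtb16 at 1.62 ± 0.54 (0.0265) and Runx1 at 1.40 ± 0.53 (0.0482), and downwards were Gzma at -1.86 ± 0.54 (0.0123) and Cdh1 at -1.56 ± 0.54 (0.0281). Gzma was present in 41.03%, 43.2% and 31.3% of cells with Bcl11b and in 90.9%, 75% and 80% of cells without. Seen from the other side, Bcl11b was present in 93.2%, 95.8% and 91.1% of the Rag1-/- cells with Zbtb16 and in 76.7%, 75% and 61.5% of those without, higher with Zbtb16 in each of the 3 runs. For Gzma in B6 DN1d the shares were 16.9%, 26.7% and 10.0% with Bcl11b and 0 of 7 cells, 0 of 10 and 9.80% without. The difference between the groups passed for Gzma, at -2.95 ± 0.77 (adjusted p = 0.0118), the only one of 29 (3.45%) to do so. Zbtb16 in B6 DN1d stood at 0.06 ± 0.54 (adjusted p = 0.921), and its difference between the groups, 1.56, did not pass (adjusted p = 0.276). Sox13 stood at 1.10 ± 0.59 in Rag1-/- (adjusted p = 0.171). By limma, 0 of the 29 passed in Rag1-/- without its run 3 (5 at an unadjusted p under 0.05) or without B6 DN1d run 1 (10), and 1 passed without Rag1-/- run 1. The Gzma difference between the groups did not pass without B6 DN1d run 1 or 2 or Rag1-/- run 1 or 3 (-2.92, -2.47, -2.73 and -2.86, adjusted p = 0.179, 0.296, 0.131 and 0.117).

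The genes whose run means were most like Bcl11b over the 8 runs, each centred on its own mean, were Il17re (root mean square difference 1.42 cycles), Gata3 (1.53), Vd4-Jd1, an assay of a rearranged delta chain (1.56), and Tox (1.62), where Bcl11b's own spread was 1.95. For Gata3 they were Ets1 (0.50), E2f2 (0.55), Gapdh (0.59) and Egr2 (0.69), against a spread of its own of 0.72. Gapdh, the reference transcript, had a spread of 0.40 and Egr2 one of 0.16, so both were nearly flat over the runs. The assays named for Bcl11b were each highest in the Tcrd-/- run, as Bcl11b was, so their likeness rests in part on that run. Vd4-Jd1 stood at 6.97 there and at 0 to 0.87 in the other runs, and Il17re at 4.42 against 0.75 to 3.03.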

How the data were processed

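Single cells were captured on a Fluidigm C1, and per the labels' protocols their cDNA went through 18 cycles of preamplification and 30 cycles of EvaGreen quantitative PCR. The values the authors deposited are threshold cycles (Ct) without normalisation, 1 for each cell and assay. The sources used here do not give how Ct and the ceiling of 24 were set. No read depth applies: 50.5% of 29280 reactions stood at 24. Level was 24 minus Ct. Runs were replicates, numbered in accession order, cells were not. limma 3.58.1 in R 4.3.3 fitted 8 runs with 4 residual degrees of freedom (co-detection: 6 runs, 0.5 added to each cell of the table). Co-detection used assays at 5% to 95% in each group; the planned rule did not say which cells its limits covered. For that test the spread was largely pooled over assays. Scripts were tested on simulated data. Correlations and figures used Python 3.11.15, scipy 1.17.1 and matplotlib 3.10.9. Partners named were the 5 highest and 3 lowest assays with 1 sign in every run, co-detection the 10 largest past 0.05 with Sox13, Tcf7, Zbtb16 and Id2, likeness the 4 nearest, and list members the 4 largest where over 6 passed. Counts include 1 more assay picked by these rules, which is not reported here. Members and lists were chosen with earlier results of these data known. Intervals are exact (Clopper-Pearson) at 95%, and a count of 0 allows up to 3 cells.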

Additional observations from a re-analysis of the deposited data

Results flagged for a closer look

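The log odds ratio of detecting Gzma with Bcl11b differed between Rag1-/- cKit- and B6 DN1d by -2.95, which passed limma's test of the difference. Other associations had opposite signs in every run of the 2 groups, and these differences were not tested. For rho with Bcl11b, the mean in Rag1-/- cKit- minus that in B6 DN1d was -0.754 for Gzma, -0.693 for Syk, -0.337 for Tcf3 E47 and -0.336 for Notch1. For rho with Gata3 it was -0.401 for Blk, whose values in Rag1-/- cKit- were between -0.15 and -0.00. In B6 DN1d run 3 the rho with Bcl11b was 0.07 for Tcf3 E47, 0.04 for Gzma, 0.02 for Syk and 0.0067 for Notch1, so that the positive sign of all 4 is weak in that run. With the number of other assays held fixed, the B6 DN1d means were 0.08 for Gzma, 0.11 for Syk and for Tcf3 E47, and 0.04 for Notch1. Notch1 was then at -0.03 in run 3. The Rag1-/- means were -0.46 for Gzma, -0.42 for Syk, -0.18 for Tcf3 E47 and -0.17 for Notch1. For Blk with Gata3 both means were then negative, -0.05 in B6 DN1d and -0.14 in Rag1-/-.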

How the results depend on the processing

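Precision is limited by the number of runs, 8 in all with 1 in each of Tcrd-/- DN1d and B6 DN2, and transcripts beyond the ceiling of 24 were not seen. Leaving out runs moved Tcrd-/- minus B6 DN1d between 4.26 and 5.94 cycles for Bcl11b and between 2.08 and 3.43 (logit) for its share. With only the runs of the 2 groups, these were 5.38 (adjusted p = 0.0950) and 2.91 (0.133) and did not pass. The Bcl11b difference was 6.01 with medians over cells (0.111) and 2.47 adjusted for the number of other assays detected (0.430). For Gata3 it was 1.98 in detected cells (0.0847), 1.62 minus Gapdh (0.0608) and 0.66 with that adjustment (0.539). Differences that had not passed changed sign: B6 DN2 minus B6 DN1d to -0.18 for Bcl11b with the adjustment, and for Gata3 to -0.22 minus Gapdh and -0.84 with the adjustment; Rag1-/- minus B6 DN1d for Gata3 to -0.129 and -0.0268 likewise; B6 DN2 minus Rag1-/- to -0.62 for Bcl11b with the adjustment, to -0.0458 for its share at a ceiling of 22, and to 0.13 for Gata3 without Rag1-/- run 1 (-0.27 to 0.13 over the runs left out). Leaving out runs, the share of Bcl11b ranged from -0.0837 to 1.26 for B6 DN2 and from -0.28 to 1.07 for Rag1-/- against B6 DN1d, and that of Gata3 from 0.58 to 1.47, 0.67 to 1.57 and 0.13 to 1.02 for B6 DN2, Tcrd-/- and Rag1-/-. The cause was not tested.

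By level, the 27 assays past the threshold in B6 DN2 became 14 with medians, 4 in detected cells and 17 to 27 with runs left out. The 29 in Tcrd-/- became 2 in detected cells and 6 with the adjustment, and the 26 in Rag1-/- 8 with medians and 3 in detected cells. Co-detection calls in B6 DN1d, 4, became 2 with only its runs, 8 at a ceiling of 22 and 0 to 6 with runs left out. Those in Rag1-/-, 7, became 4 with only its runs and 0 to 9 with runs left out. Alternatives chosen after seeing the data tested other sets of assays than the 29. Over 38 assays at 5% to 95% in both groups together, 4 passed in B6 DN1d, 13 in Rag1-/- and 3 for the difference between the groups. Over 17 assays at 10% to 90% in every run, 0 passed in B6 DN1d (4 at an unadjusted p under 0.05 by limma) and 3 in Rag1-/-. For the difference it was then 0 (3 at an unadjusted p under 0.05). The B6 DN2 correlation of Bcl11b and Gata3, 0.41, was 0.18 given Gapdh. Of the settings run, 426 were labelled the same. For a difference this meant that direction and side of the threshold were kept, and for a count or a correlation that the value stayed near the main one. Of the others, 60 lost and 15 gained a call, 10 reversed direction, and 21, all counts or correlations, moved further. No paired analysis was possible because the runs of different groups share no number in the labels.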
